A study of Homo sapiens with 12 samples.

Results

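The reporter transcript described here is the single row named GFP among 57797 rows of the count table, which otherwise holds 57704 endogenous genes and 92 ERCC RNA standards. It was found by its identifier, GFP, and it was counted in all 12 libraries. The cells were of HEK293, an established line from human embryonic kidney, and stably carried a reporter made of an endogenous intronic sequence with DARP and expressed DARP-EGFP; both groups carried it. In 1 group, 6 side-by-side transfections of 1 starting culture received pooled siRNAs against SUPT4H1, and in the other, 6 received scrambled siRNAs, both at 100 nM, and RNA was taken after 72 hours. Because all transfections came from 1 culture, the p-values measure how transfections of it varied. The scrambled lysates received ERCC mix 1 and the SUPT4H1 lysates ERCC mix 2, so mix and group cannot be told apart. The promoter that drives the reporter, its place in the genome, whether the line is 1 clone and the sequence behind the GFP row were not given in the sources used here. No sequence of it is printed for that reason, and a line whose reporter lacks the repeat is not analysed here, so a change of GFP cannot be assigned to the repeat.

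SUPT4H1 encodes SPT4, the small subunit of DSIF, a complex that travels with RNA polymerase II and takes part both in pausing near promoters and in elongation through the gene body. Its partner in DSIF is SPT5, encoded by SUPT5H. Expanded repeats are stretches that the polymerase must read through, and loss of SPT4 has been studied as a way to lower transcripts that contain them. EGFP, a fluorescent protein from jellyfish in a form enhanced for mammalian cells, is a common tag by which such a transcript is followed. The libraries were of the QuantSeq 3′ kind, in which a read marks the 3′ end of a polyadenylated RNA, so a GFP count stands for 1 sequenced 3′ end and carries no information on the repeat itself.

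The scrambled libraries held between 7337033 and 20269171 endogenous counts each, and the SUPT4H1 libraries between 6591194 and 11366971. All 8 HEK293 markers looked for had counts, and their summed level was 1621 to 2160 counts per 1000000 endogenous counts (CPM) with scrambled siRNA and 1423 to 1530 with SUPT4H1 siRNA. Leukocyte, endothelial and liver markers summed to at most 0.528 CPM in any library, with PTPRC, HBB and CDH5 at 0, fibroblast markers to at most 12.3 CPM and mature neuron markers to at most 49.0 CPM. SUPT4H1 (ENSG00000213246, chromosome 17 from 58345175 to 58353093, GRCh38, minus strand) was at 175 to 199 CPM in the scrambled libraries and at 17.9 to 22.8 CPM in the SUPT4H1 libraries, so the targeted gene was low in every library labelled with its siRNAs. Its relative log2 fold change was −3.14 (SE 0.08), with a Benjamini-Hochberg adjusted p = 2.59e-17 by the quasi-likelihood test of edgeR. Its annotated span overlaps those of RNF43 and AC004687.2, transcribed in the same direction, and of TSPOAP1-AS1, transcribed in the other; no strand setting is stated for the counting, so counts of genes with such an overlap are uncertain.

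The reporter was an abundant transcript in the cells with scrambled siRNA. Its raw counts with scrambled siRNA were 1827, 2508, 1648, 697, 1512 and 1381 in replicates 1 to 6. With SUPT4H1 siRNA they were 742, 577, 790, 335, 572 and 293. The scrambled libraries were deeper, and scrambled replicate 4, the shallowest of them, had fewer GFP counts than 2 of the SUPT4H1 libraries, so raw counts overlapped and depth had to be taken into account. The counting error of these numbers was between 2.00% and 3.79% in the scrambled libraries and between 3.56% and 5.84% in the SUPT4H1 libraries. By raw count the reporter stood between place 1392 and place 1898 from the top among endogenous genes in the scrambled libraries, within the uppermost 6.37% to 9.74% of genes detected. In the SUPT4H1 libraries it stood between place 2256 and place 4064, or 11.6% to 21.2% from the top, with no overlap between the groups.

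Relative to endogenous mRNA the reporter fell in every library of the SUPT4H1 group. Scaled by TMM (a scaling that takes most genes as unchanged), it was at 105, 123, 96.7, 94.6, 98.2 and 91.9 CPM in scrambled replicates 1 to 6. It was at 65.1, 50.0, 79.7, 45.0, 61.0 and 42.8 CPM in SUPT4H1 replicates 1 to 6. The highest SUPT4H1 library, replicate 3, lay below the lowest scrambled library, replicate 6, so the groups did not overlap. The means were 102 ± 11.4 and 57.3 ± 14.1 CPM (SD, n = 6 each), a relative log2 fold change of −0.82 with SE 0.13 (edgeR adjusted p = 6.30e-05 over 13811 endogenous genes and the reporter). Without any gene-wise model, the log2 ratio of GFP counts to summed endogenous counts was lower by 0.81 than with scrambled siRNA, leaving 56.9% of the level, with a 95% interval of 45.0% to 72.5% (two-sided exact permutation over all splits into 6 and 6, p = 0.0022, the smallest they can give, adjusted p = 0.0039 over 7 tests of this kind). As a background, 20.2% of endogenous genes were called lower by the same edgeR test, and 10.2% were lower with no overlap between the groups.

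Relative to the ERCC standards the fall was larger. These standards were added to each lysate in a fixed volume, and the reference was the summed count of subgroup B, whose standards have the same nominal amount in both mixes. Per 1000 counts of subgroup B, GFP was at 59.2, 70.7, 41.4, 81.5, 51.8 and 46.5 counts in scrambled replicates 1 to 6. It was at 15.8, 16.9, 15.3, 12.9, 38.4 and 12.2 in SUPT4H1 replicates 1 to 6. Of the SUPT4H1 libraries 5 lay close together and far below the scrambled group, and replicate 5 lay just under scrambled replicate 3, so the groups were apart by a small margin that this library sets. The log2 difference was −1.74, which leaves 29.9% of the scrambled level with a 95% interval of 20.2% to 47.0% (exact permutation p = 0.0022, n = 6 per group, adjusted p = 0.0039). The edgeR fit with the same scaling gave a log2 fold change of −1.66 (SE 0.32, adjusted p = 1.54e-05). Under this scaling 59% of endogenous genes were called lower and 0.311% higher, so a call alone does not set the reporter apart, whereas 8.52% of genes were lower without overlap. That call was made for 8152 genes, for 12320 without SUPT4H1 replicate 5 and for 2226 with subgroup C in place of B. Only 4.61% of genes were lower without overlap under both scalings, as the reporter was. For endogenous mRNA as a whole, SUPT4H1 replicate 5 lay within the scrambled range on the spike-in scale. This library therefore also bears on how many genes were without overlap under that scaling, and these shares were not counted without it.

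**Figure D1:**
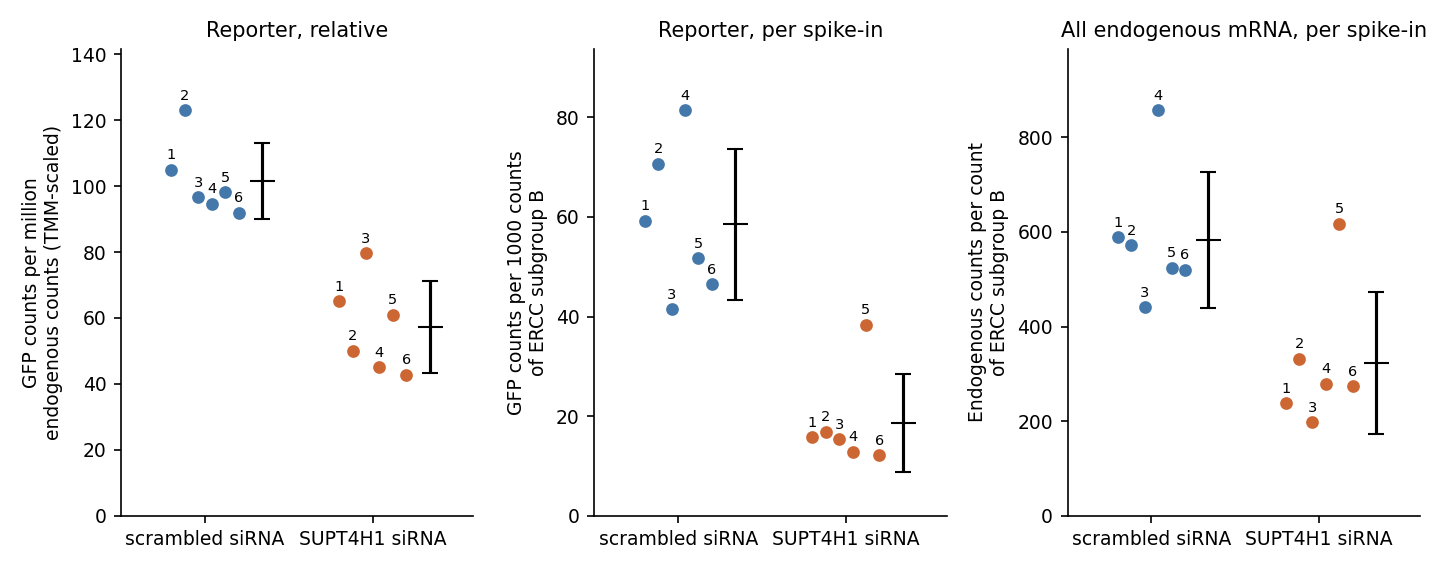
Reporter and total endogenous mRNA in each library, with replicate numbers beside the points and the mean and SD (n = 6) as bars; the axes give GFP in TMM-scaled CPM, GFP per 1000 counts of ERCC subgroup B, and endogenous counts per count of subgroup B. GFP was lower in all 6 SUPT4H1 libraries under both scalings, while for endogenous mRNA SUPT4H1 replicate 5, at 617, lay within the scrambled range of 441 to 858.

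The spike-in change of the reporter is the sum of its relative change and the change of endogenous mRNA as a whole. Endogenous counts per subgroup B count were between 441 and 858 with scrambled siRNA. They were 238, 332, 197, 279, 617 and 274 in SUPT4H1 replicates 1 to 6. Replicate 5 lay inside the scrambled range, and the other 5 lay below it. The log2 difference was −0.93, or 52.6% of the scrambled level, with a 95% interval of 36.0% to 80.0% (exact permutation p = 0.013, n = 6 per group, adjusted p = 0.018). The 2 parts of the reporter's change, −0.81 relative to endogenous mRNA and −0.93 for endogenous mRNA itself, were thus of similar size. The labels give 1000000 cells for every lysate, a nominal number that these counts cannot check. In these bulk lysates, fewer cells than that number and less RNA per cell therefore cannot be told apart in the second part. The first part does not depend on the standards. The raw summed counts of subgroup B differed by 0.21 on the log2 scale, with a 95% interval of −0.71 to 1.16 (exact permutation p = 0.64, n = 6 per group). These raw counts also follow sequencing depth, so they cannot check whether equal amounts of standard went into the lysates.

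Among all genes tested, few changed as far downward as the reporter. Of 13811 endogenous genes, 534 (3.87%) had a lower relative log2 fold change and 541 (3.92%) a lower spike-in-scaled one. The median gene stood at 0.00 in the relative comparison and at −0.82 with spike-in scaling, so the reporter lay below it by a similar distance in both. The scalings differ by a single factor per library that applies to all genes. The likeness of the distances and of the shares therefore follows from the method and is not a second result. In level it passed from 5.46 times the median gene, with 12.5% of genes above it, to 3.02 times, with 22.4% above it.

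**Figure D2:**
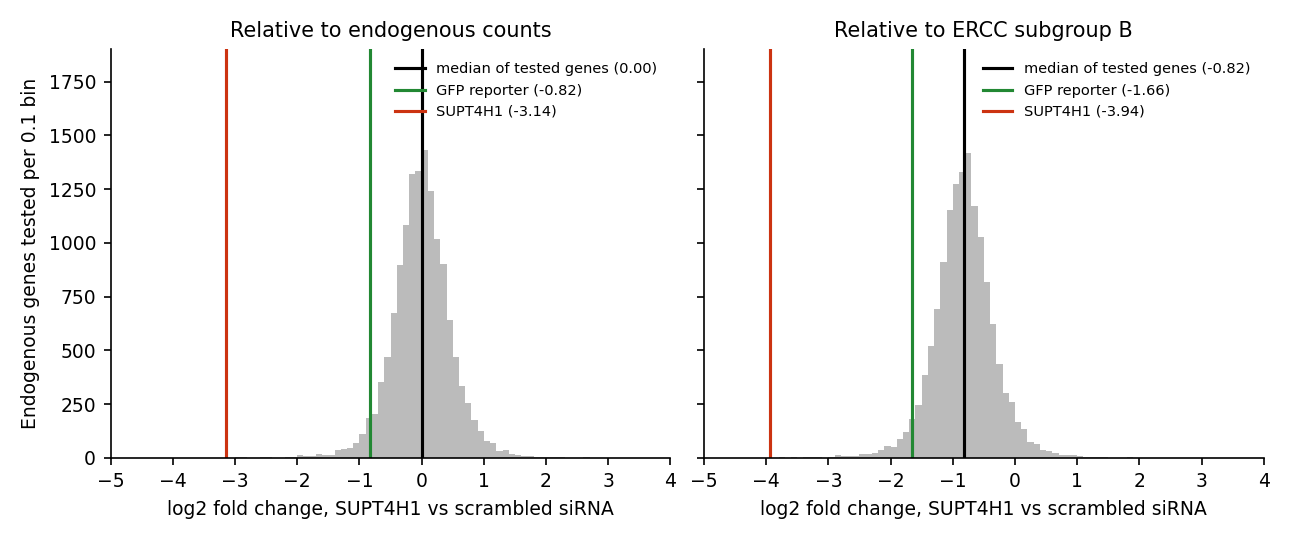
Distribution of log2 fold changes (SUPT4H1 against scrambled siRNA) over 13811 endogenous genes in bins of 0.1, relative to endogenous counts and relative to ERCC subgroup B, with lines for the median gene, the GFP reporter and SUPT4H1. The whole distribution moved to a median of −0.82 with spike-in scaling, and the reporter lay in its lower tail in both panels. The panels use the same counts with a different factor per library, so they are not independent.

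The spike-in-scaled fall was seen against every well-counted standard taken singly, although a summed reference leans on its most counted member. ERCC-00096, with 6795 to 40788 counts per library, made up most of the subgroup B sum of 8555 to 51529. Against ERCC-00096 alone the log2 change of GFP was −1.73. In all 12 libraries 26 standards reached 20 counts: 5 of subgroup A, 7 of B, 7 of C and 7 of D. With each one corrected for its nominal ratio between the mixes, the log2 change of GFP per standard was between −2.14 and −1.34, with a median of −1.73. This leaves between 22.7% and 39.4% of the scrambled level. Subgroup medians were −1.71 (A), −1.73 (B), −1.75 (C) and −1.73 (D). The smallest change, −1.34, was against ERCC-00074, the most counted standard of subgroup C, and the largest, −2.14, was against ERCC-00043 of subgroup D. GFP per standard was lower without overlap for 16 of the 26, and for all 26 once SUPT4H1 replicate 5 was left out, a step chosen after its values were seen.

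**Figure D3:**
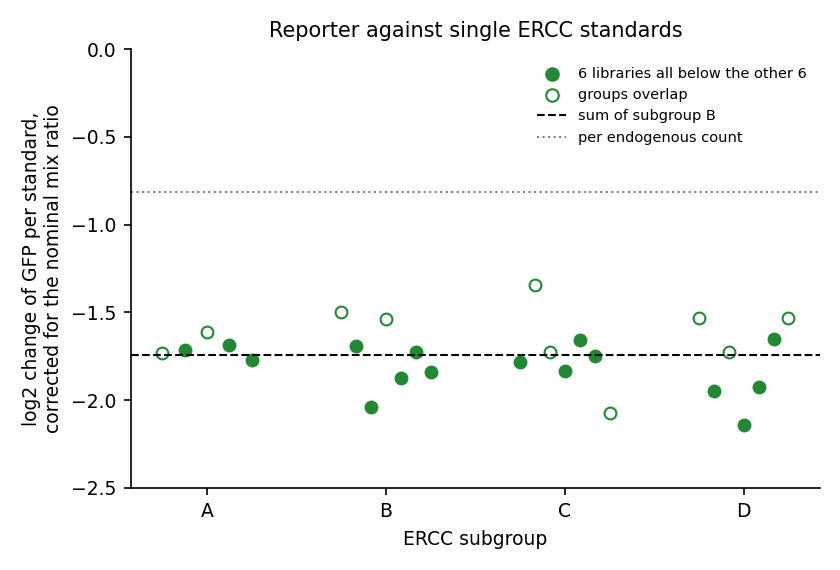
Log2 change of GFP per count of each of 26 ERCC standards, corrected for the nominal ratio of its subgroup (A to D) between the mixes; filled points mark standards for which the 6 SUPT4H1 libraries all lay below the 6 scrambled ones. Every point lies below the dotted line at −0.81, the change per endogenous count, and around the dashed line at −1.74, the change per summed count of subgroup B.

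How large the fall appeared against a single transcript depended on the transcript used. All 14 genes of a list often used as references in quantitative PCR passed the count filter. Against YWHAZ, a 14-3-3 protein gene, the reporter was left at 31.1% of its scrambled level, and against ACTB (cytoplasmic actin) at 40.6%. Against B2M, the light chain of MHC class I, it was at 43.5%. Against HPRT1 (purine salvage) it was at 46.4%, against the prolyl isomerase gene PPIA at 46.7% and against the lysosomal enzyme gene GUSB at 48.8%. Values between 51.5% and 60.2% were found against TBP (51.5%), the transferrin receptor gene TFRC (52.1%), the glycolysis gene GAPDH (56.1%) and the importin gene IPO8 (60.2%). The falls were smallest against the ribosomal protein gene RPL13A, with 71.1% left, the glycolysis gene PGK1 (72.7%), the succinate dehydrogenase gene SDHA (75.0%) and the ribosomal protein gene RPLP0 (75.5%). The median over the 14 was 51.8%.

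For 10 of the 14 the ratio was lower in every SUPT4H1 library than in every scrambled one, and the groups overlapped for TBP, RPLP0, SDHA and PGK1. The same held for 48.3% of all tested genes used as the denominator, and the mean ratio was lower with SUPT4H1 siRNA for 96.4% of them. SUPT4H1 replicate 3 had the highest ratio in its group for all 14. The reference genes themselves moved in relative abundance. Of the 14, 5 rose and 4 fell (edgeR adjusted p under 0.05), with a median log2 fold change of 0.09 (0.00 over all tested genes), where 20% of all tested genes rose and 20.2% fell. YWHAZ rose from 132 ± 10.4 to 236 ± 16.5 CPM (SD, n = 6 each, log2 0.83, adjusted p = 2.8e-08), and ACTB from 422 ± 50.4 to 572 ± 27.6 CPM (log2 0.44, adjusted p = 0.00023). RPLP0, a protein of the large ribosomal subunit, fell from 3492 ± 246 to 2568 ± 261 CPM (log2 −0.44, adjusted p = 0.00024). GAPDH, at 2780 ± 299 and 2739 ± 235 CPM, had a log2 fold change of −0.02 (edgeR adjusted p = 0.87). With spike-in scaling 8 of the 14 fell and 0 rose, near the 59% and 0.311% over all tested genes, with GAPDH among the 8 at −0.85 and YWHAZ at 0.04. GAPDH, ACTB, PPIA, RPLP0, RPL13A, HPRT1 and YWHAZ have processed pseudogenes that can share their reads, GAPDH, ACTB, TFRC and PGK1 overlap genes on the opposite strand, and PGK1 and RPL13A also overlap genes on their own strand.

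**Figure D4:**
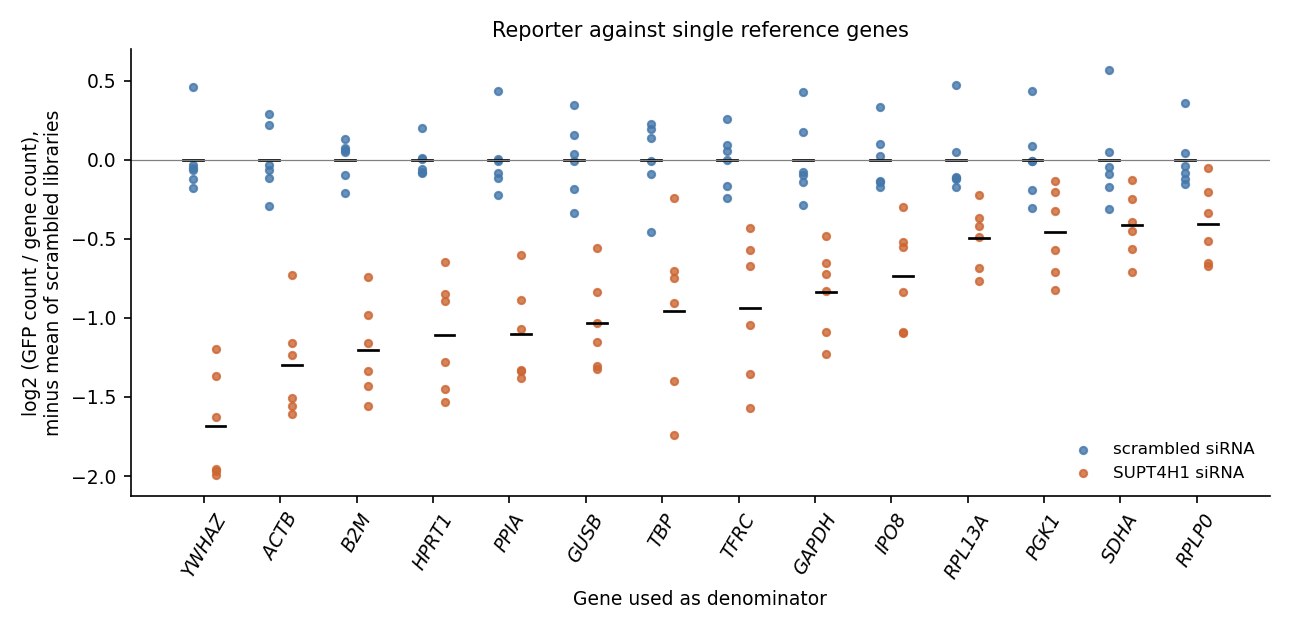
Log2 ratio of GFP to each of 14 reference genes per library, after subtracting the mean of the 6 scrambled libraries, with bars at the group means. The mean fell below 0 against all 14, from −1.68 against YWHAZ to −0.41 against RPLP0, and the groups overlapped for 4 of them.

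Within groups, no relation between the reporter and SUPT4H1 over libraries passed the test after adjustment. The 2 groups lay far apart in both transcripts, so the relation was examined within each group of 6. In the SUPT4H1 group, SUPT4H1 was left at 9.72% to 12.4% of its scrambled mean, a narrow range, while GFP was left at 42.2% to 78.4% of its own. The library with the least SUPT4H1, replicate 4 at 17.9 CPM, had GFP at 45.0 CPM. The library with the most, replicate 5 at 22.8 CPM, had GFP at 61.0 CPM, and the highest GFP, 79.7 CPM, was in replicate 3 with SUPT4H1 at 20.8 CPM.

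On the TMM scale Pearson's r was 0.48 (exact permutation p = 0.33, adjusted p = 0.49 over 6 relations) and Spearman's rho 0.54 (exact permutation p = 0.30) in the SUPT4H1 group. It was −0.49 (exact permutation p = 0.33, adjusted p = 0.49) with rho −0.60 (exact permutation p = 0.24) in the scrambled group. Without the 2 libraries farthest from the median of SUPT4H1, r was 0.29 and −0.91 over 4 libraries. Per count of subgroup B, r was 0.88 (exact permutation p = 0.069, adjusted p = 0.21) in the SUPT4H1 group and 0.85 (exact permutation p = 0.022, adjusted p = 0.13) in the scrambled group, with rho 0.60 (exact permutation p = 0.24) and 0.71 (exact permutation p = 0.14). Both transcripts share the divisor on this scale. Without the 2 farthest libraries r was 0.49 and 0.29, over 4 libraries. Those left out were replicates 3 and 5 of the SUPT4H1 group and 3 and 4 of the scrambled group. The high r thus depended on them, but leaving out the farthest libraries also narrows the range, which by itself lowers r. None of the 6 relations passed an adjusted p of 0.05, with 6 libraries each.

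**Figure D5:**
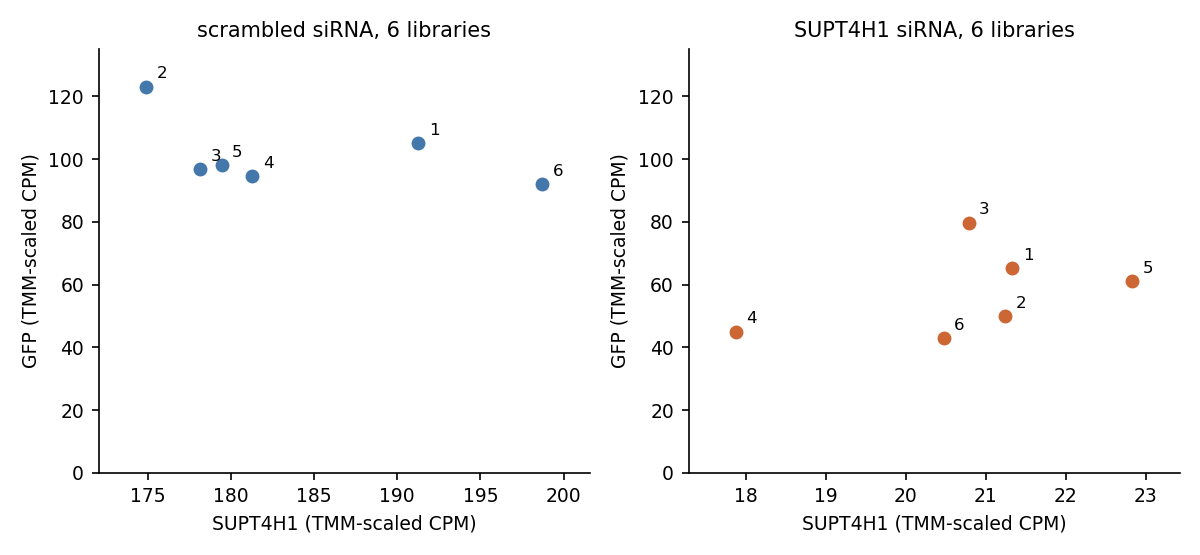
GFP against SUPT4H1 in TMM-scaled CPM within each group of 6 libraries, with replicate numbers beside the points; the horizontal axes cover different ranges and do not start at 0. In the SUPT4H1 group GFP ran from 42.8 to 79.7 CPM while SUPT4H1 ran from 17.9 to 22.8 CPM.

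The share of the reporter was also compared with the loss of endogenous mRNA per standard. In the SUPT4H1 group, replicate 3 had the least endogenous mRNA per standard, 197, and the highest reporter share, and replicate 5 had the most, 617, with the third highest reporter share. Pearson's r between log2 endogenous counts per subgroup B count and log2 GFP per endogenous count was −0.17 (exact permutation p = 0.78, adjusted p = 0.88) in the SUPT4H1 group and 0.06 (exact permutation p = 0.88, adjusted p = 0.88) in the scrambled group. Spearman's rho was −0.43 (exact permutation p = 0.42) and 0.54 (exact permutation p = 0.30). Without the 2 farthest libraries r was −0.53 and 0.61. Endogenous counts are the numerator of the amount per standard and the divisor of the reporter share. This by itself can pull r toward negative values. A relation between the 2 parts of the reporter's change was not detectable within either group at this number of libraries.

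The reporter varied more between SUPT4H1 libraries than between scrambled ones. Its coefficient of variation was 11.2% over the scrambled libraries and 24.6% over the SUPT4H1 libraries, in both cases above its counting error. For 2675 genes within 2-fold of its scrambled level the median was 8.62% and 10.6%, and 4.34% of them varied more than the reporter in the SUPT4H1 group against 27.9% in the scrambled group. These genes were matched to the scrambled level only. In the SUPT4H1 group the reporter was at 57.3 CPM, so the match in level, and with it in counting noise, did not hold there. The difference in spread itself was not tested. The 2 SUPT4H1 libraries with the fewest endogenous counts, replicates 4 and 6 (7260981 and 6591194), had the lowest reporter shares; the part of depth in this was not tested. The shallowest scrambled library, replicate 4 with 7337033 counts, had 94.6 CPM, inside its group's range.

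To see which genes varied as the reporter did, log2 CPM deviations from the group means were compared over the 12 libraries for 6716 genes with a mean of at least 20 CPM. The correlations are a description: the libraries share their scaling, and the middle 90% of genes lay between −0.53 and 0.54. The 5 most alike named genes were INPP1 (r = 0.89), TMED1 (0.87), C7orf26 (0.82), SMIM20 (0.82) and RPL13AP20 (0.81). INPP1 (chromosome 2 from 190343470 to 190371665) encodes an inositol phosphatase. TMED1 (chromosome 19 from 10832438 to 10836318) encodes a protein of cargo transport in the early secretory pathway. SMIM20 (chromosome 4 from 25861830 to 25929874) encodes a small mitochondrial membrane protein. C7orf26 lies on chromosome 7 from 6590017 to 6608726, and RPL13AP20 (chromosome 12 from 12875499 to 12876107) is a ribosomal protein pseudogene that can share reads with RPL13A. Positions are those of GRCh38.

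The likeness rested mostly on the SUPT4H1 group, where r was between 0.86 and 0.95 for the 5 genes, against −0.02 to 0.81 in the scrambled group. The reporter itself deviated more there (−0.38 to 0.51, against −0.14 to 0.28), so those libraries weighed more in the choice of the 5. The 5 were picked as the highest among 6716 genes, and how high such a top would be by chance was not tested. Of the 5, SMIM20 fell with SUPT4H1 siRNA, from 43.8 ± 3.04 to 28.8 ± 5.58 CPM (SD, n = 6 each, log2 −0.60, edgeR adjusted p = 0.00018). TMED1 fell by less (log2 −0.27, edgeR adjusted p = 0.024), and INPP1, C7orf26 and RPL13AP20, at −0.17, −0.27 and 0.15, did not pass the test. RRP1B (r = −0.89), a nucleolar protein gene, ORC2 (−0.88), a subunit of the origin recognition complex, and HNRNPU (−0.86), a nuclear RNA-binding protein gene, varied most in the opposite sense and were chosen after their values were seen. For SUPT4H1 this r was 0.27. INPP1, TMED1, SMIM20, HNRNPU and ORC2 overlap genes on the opposite strand , which makes their counts uncertain.

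Genes of the elongation machinery were called no more often than tested genes in general. Of the 33 tested genes for pausing and elongation factors, 5 rose (15.2%) and 6 fell (18.2%) in relative abundance. Over all tested genes 20% rose and 20.2% fell. The 6 include SUPT4H1, the target of the siRNAs. The median log2 fold change of the 33 was 0.03, and only SUPT4H1 lay below the reporter. SUPT5H, the other DSIF gene, was at 52.0 and 62.5 CPM (log2 0.27, SE 0.08, edgeR adjusted p = 0.0099) and at −0.54 with spike-in scaling (adjusted p = 0.12). EAF1, a partner of the ELL elongation factors, rose from 10.2 to 28.2 CPM (log2 1.45, edgeR adjusted p = 2.44e-05), but overlaps METTL6 and EAF1-AS1 on the opposite strand. The NELF pausing complex genes NELFA (−0.49) and NELFB (−0.47) fell. NELFE (−0.02, edgeR adjusted p = 0.84) and NELFCD (−0.11, edgeR adjusted p = 0.42), of the same complex, did not pass the test. NELFE overlaps a gene on the opposite strand. With spike-in scaling 21 of the 33 fell and 0 rose (median −0.78), where 59% of all tested genes fell.

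Of 29 tested endogenous genes with a disease-associated tandem repeat, 7 rose and 3 fell in relative abundance, where 20% of all tested genes rose and 20.2% fell. The list's median was 0.14, and 0 lay below the reporter, where 3.87% of all tested genes did. ATXN1, a CAG repeat gene, had the lowest adjusted p among the 3 that fell (log2 −0.62, edgeR adjusted p = 0.0039), ahead of CNBP (−0.30) and RUNX2 (−0.40). The alanine-repeat genes HOXD13 (0.44) and SOX3 (0.58) and the adaptor gene GIPC1 (0.41) rose. C9orf72, whose first intron holds a hexanucleotide repeat, was at 7.10 and 8.45 CPM (log2 0.22, SE 0.21, edgeR adjusted p = 0.44). With spike-in scaling 14 of the 29 fell and 0 rose, where 59% of all tested genes fell and 0.311% rose, with a median of −0.69 against −0.82 over all tested genes. Repeat lengths of these genes in HEK293 were not measured here, and ATXN1, RUNX2 and GIPC1 overlap genes on the opposite strand.

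Genes that silence integrated transgenes were listed because the reporter is 1. The HUSH complex recruits histone H3 lysine 9 methylation to such inserts, with SETDB1 and MORC2 as its partners. Of 15 tested members of this list 3 rose and 3 fell in relative abundance, with a median of 0.13, near the background of 20% and 20.2%. The 3 that rose were the HUSH genes FAM208A (log2 0.50, edgeR adjusted p = 0.0072) and MPHOSPH8 (0.34, adjusted p = 0.0027), and MORC2 (0.44, adjusted p = 0.015). The HUSH gene PPHLN1 (0.16, edgeR adjusted p = 0.077) and SETDB1 (0.13, edgeR adjusted p = 0.29) did not pass the test. CBX3, which encodes a heterochromatin protein that binds this mark, fell from 1354 to 926 CPM (log2 −0.55, edgeR adjusted p = 2.32e-05), as did the DNA methyltransferase gene DNMT3B (−0.42) and the H3 lysine 9 methyltransferase gene SUV39H2 (−0.39). With spike-in scaling no member rose and 7 of the 15 fell, where 0.311% of all tested genes rose and 59% fell, and FAM208A, MPHOSPH8 and MORC2 stood at −0.29, −0.47 and −0.34. FAM208A, MORC2, PPHLN1, SETDB1, CBX3 and SUV39H2 overlap genes on the opposite strand.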

How the data were processed

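The 12 libraries were QuantSeq 3′ mRNA libraries made from 200 ng of RNA, and 2 μl of ERCC standards diluted 1:100 had gone into each lysate of 1000000 cells, per the labels' protocols. The authors deposited raw whole-number counts per gene, and FastQC 0.11.5, STAR, MultiQC and R 3.4.3 with GRCh38.p10 are named in the submitters' processing notes. The counting tool, annotation release and strand setting were not given in the sources used here. All 30 pairs of libraries within a group differed by more than counting noise (chi-square over its degrees of freedom 4.45 to 34.7).

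Counts were tested with edgeR 4.0.16 (robust quasi-likelihood, R 4.3.3) after filterByExpr, over all 12 libraries without covariates, with TMM scaling over endogenous genes or scaling by ERCC subgroup B. The reporter was carried through each fit and left out of library sizes. Adjusted p-values are Benjamini-Hochberg values over all endogenous genes and the reporter, with a threshold of 0.05. The assignment of standards to subgroups (nominal mix 1 to mix 2 ratios of 4 for A, 1 for B, 0.667 for C and 0.5 for D) rests on general knowledge of the product, not on a supplied table. Values per library were compared by exact permutation over all splits into 6 and 6, and 95% intervals came from inverting that test. Relations over libraries used all pairings of 6 values. Ratios to single genes used counts plus a pseudocount of 1, and log2 CPM a pseudocount of 0.5. Alternatives included DESeq2 1.42.0, limma-voom (limma 3.58.1), other scalings, filters and standards, a replicate block and leaving out each library.

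Genes named are the reporter, SUPT4H1, SUPT5H, C9orf72, the reference genes, in each list the 4 or fewer called members with the lowest adjusted p, and the 5 with a mean of at least 20 CPM and the most similar deviations. CNBP, RUNX2, NELFE, NELFCD, MORC2, SUV39H2, PPHLN1, SETDB1, the further reference genes and the 3 most opposite genes complete counts or were picked after their values were seen. A pair of genes first listed as references is not reported here and not among the 14 that are. The reporter and all lists were chosen with earlier results of these data known. Positions came from GENCODE release 29 (GRCh38). Scripts were tested on simulated counts with known changes.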

Additional observations from a re-analysis of the deposited data

Results flagged for a closer look

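In 14 sets of 6 libraries examined (the reporter, SUPT4H1 and endogenous mRNA on the scales used, in each group), a library stood apart from the other 5 in 6 sets by Dixon's ratio at its 95% critical value, which chance alone exceeds in about 0.7 of 14 sets. The sets share libraries and divisors, so these are not independent. SUPT4H1 siRNA replicate 5 stood apart on 3 measures that have ERCC subgroup B as the divisor: 38.4 GFP counts per 1000 standard counts (the others 12.2 to 16.9), 14.4 SUPT4H1 counts per 1000 (the others 4.00 to 7.16) and 617 endogenous counts per standard count (the others 197 to 332). Its reporter share of 61.0 CPM lay within its group, and its RNA integrity number, 9.6, was the lowest of the 12. Scrambled siRNA replicate 4 stood apart in endogenous counts per standard count, at 858 (the others 441 to 589). Scrambled siRNA replicate 2 stood apart in reporter share, at 124 GFP counts per 1000000 endogenous counts (the others 89.4 to 101), and in GFP counts per SUPT4H1 count, at 0.704 (the others 0.463 to 0.549). Without scrambled replicate 2 the relative log2 fold change of the reporter was −0.76, and without SUPT4H1 replicate 5 its spike-in-scaled value was −2.0.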

How the results depend on the processing

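The relative fall of the reporter kept its direction and its side of the threshold under all 20 alternatives (log2 −0.94 to −0.75), as did the fall of SUPT4H1 (−3.18 to −3.10). So did the spike-in-scaled fall of the reporter under 22 (−2.04 to −1.34), with subgroup C alone giving −1.34, GFP per endogenous count under 17 (−0.90 to −0.74) and GFP per subgroup B count under 18 (−1.97 to −1.45). In neither of these GFP ratios did the groups overlap. Leaving out a library or blocking by replicate number therefore could not move their exact p across the threshold. Most of their alternatives are of this kind and show only the size of the change. Leaving out each library gave −0.94 to −0.75 for the relative fall and −2.0 to −1.54 for the spike-in-scaled fall. Replicate numbers are shared by both groups, but same-numbered libraries deviated together (r over 0.1 across genes) in 1 of 6 pairs, and 0 of 6 scrambled libraries correlated best with their own number. With the replicate number as a block the reporter's log2 fold change was −0.85 (edgeR adjusted p = 0.00017) and −1.75 with spike-in scaling, and the block changed no call of the reporter or SUPT4H1. The relation of GFP to SUPT4H1 per standard in the scrambled group (r = 0.85) was 0.29 without its 2 farthest libraries, over 4 libraries. Counts of genes called lower with spike-in scaling, 8152, were 12320 without SUPT4H1 siRNA replicate 5, 12861 with RNA integrity as a covariate and 2226 with subgroup C alone. Those called higher, 43, were 96 without the filter, 27 with RNA integrity as a covariate, 28 without scrambled siRNA replicate 6 and 69 with subgroup C alone. Counts in the relative comparison stayed within 1.5 times. The number of libraries limits the relations within groups.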
